A study of Mus musculus with 4 samples.

Results

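The genes described here are 10 circadian clock and clock output genes, chosen by symbol from the deposited gene list: Per1, Per2, Per3, Cry1, Arntl, Npas2, Dbp, Tef, Hlf and Bhlhe41. All 10 were found among the 22609 genes of the files, and all 10 passed the filter on low counts, as did 14978 genes in all. RNA came from the hippocampus of ovariectomized C57BL/6 mice that received estradiol (E2) by mini pump and were killed 24 h after blood flow had returned from global cerebral ischemia (GCI), in which the supply of blood to the whole brain is briefly cut off. The knockout animals were PELP1 FBKO, a forebrain knockout of the estrogen receptor co-regulator PELP1, and the controls were FLOXED mice that had the same surgery, hormone and ischemia, with 2 libraries for each genotype. The driver of the knockout, the age of the mice and the clock time at which they were killed are not given in the sources used here. No library came from animals without ischemia or without estradiol.

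The mammalian clock is a loop of transcription and repression. The activators BMAL1 (gene Arntl) and CLOCK, or its relative NPAS2, bind E-box sequences and switch on the Per and Cry genes, whose proteins then block them. The same activators drive Bhlhe41, which encodes the repressor DEC2, and the PAR bZIP genes Dbp, Tef and Hlf, whose proteins bind D-box sequences and pass the rhythm on to output genes. In most mouse tissues Arntl and Npas2 peak when Dbp and the Per genes are low, so the ratio of Dbp to Arntl is a rough marker of clock time. The hippocampus has such a rhythm, set by the master clock of the suprachiasmatic nucleus and by hormones.

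Sequences before the transcript starts of the members show where these regulators could bind. The set of RefSeq promoters used here (build GRCm38.p6, newer than the mm9 build of the counts) held 12 starts for 9 of the 10 genes. Per2 had no entry in that set, which does not show that RefSeq lacks a start for it. The windows of the Arntl starts overlap each other. The 250 bases before each start were searched on both strands for the E-box CACGTG, the weaker E-prime box CACGTT, the D-boxes TTATGTAA and TTACGTAA, the cyclic AMP response element TGACGTCA, and TAGGTCA or TGGGTCA, the core of the element bound by ROR and REV-ERB receptors. None of the forms searched overlaps another at a match. The E-box stood before 5 of the 12 member starts, in Per1, Cry1, Bhlhe41 and at both starts of Tef, and in 6.02% of all 32851 promoter windows of the same length. A D-box stood in Per3 alone among the members and in 0.931% of all windows, and the cyclic AMP response element in Hlf alone and in 1.55% of all windows. The E-prime box was found in Cry1 and in 3.85% of all windows, and the receptor element in 0 of the 12 member windows and 5.38% of all. A match is a string of letters and not a shown binding site. Only these exact forms in these 250 bases were searched, so other forms and sites at or past the start would be missed. A window without a match is thus not shown to lack such sites.

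Printed here are 4 of the windows, with matches in capitals. Per3 (chr4:151044666-151044915, minus strand) has a pair of D-boxes. Cry1 (chr10:85185055-85185304, minus strand) has an E-prime box on the opposite strand and an E-box. Bhlhe41 (chr6:145865421-145865670, minus strand) has an E-box. Arntl (chr7:113207261-113207510, plus strand, the second of its starts) is shown because it had the largest difference between genotypes among the members. Its window held no match to the forms searched, and bases past the start were not searched.
Per3: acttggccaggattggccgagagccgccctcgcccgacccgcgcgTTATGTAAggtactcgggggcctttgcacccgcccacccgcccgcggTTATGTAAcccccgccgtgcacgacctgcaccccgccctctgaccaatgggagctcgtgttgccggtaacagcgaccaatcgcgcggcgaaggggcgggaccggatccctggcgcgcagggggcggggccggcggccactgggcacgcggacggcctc
Cry1: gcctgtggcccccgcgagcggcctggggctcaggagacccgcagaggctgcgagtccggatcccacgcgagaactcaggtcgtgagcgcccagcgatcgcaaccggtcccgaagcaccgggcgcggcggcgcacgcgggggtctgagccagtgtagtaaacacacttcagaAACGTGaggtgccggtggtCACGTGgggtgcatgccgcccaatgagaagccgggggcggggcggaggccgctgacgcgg
Bhlhe41: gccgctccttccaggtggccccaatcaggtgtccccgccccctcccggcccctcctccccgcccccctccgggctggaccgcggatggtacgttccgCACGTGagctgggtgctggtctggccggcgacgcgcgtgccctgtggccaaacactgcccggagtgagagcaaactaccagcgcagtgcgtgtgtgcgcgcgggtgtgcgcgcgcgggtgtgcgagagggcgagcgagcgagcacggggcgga
Arntl: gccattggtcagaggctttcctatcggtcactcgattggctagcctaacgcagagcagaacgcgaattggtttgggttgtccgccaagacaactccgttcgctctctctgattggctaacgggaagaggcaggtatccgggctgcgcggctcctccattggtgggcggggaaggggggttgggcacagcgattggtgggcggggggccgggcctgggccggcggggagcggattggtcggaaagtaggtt

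**Figure D1:**
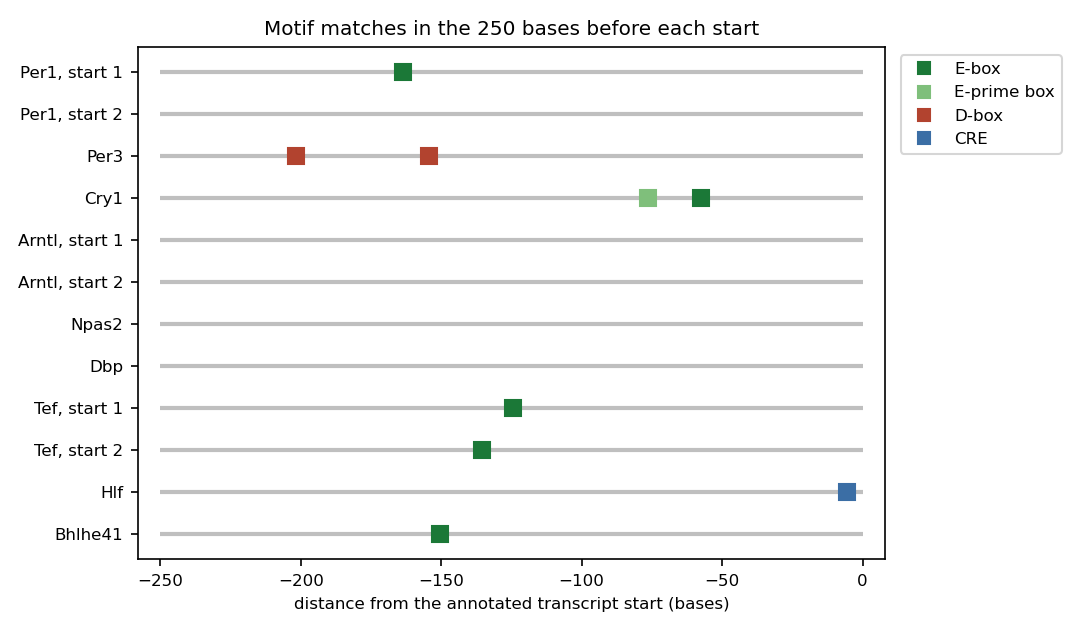
Motif matches in the 250 bases before each annotated start of 9 members, with distance from the start in bases on the horizontal axis and 1 line for each start. Squares mark matches, E-boxes stand before 5 of the 12 starts, and the pair of D-boxes belongs to Per3.

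The libraries held between 17524594 and 22447658 reads assigned to genes, and 10 members had between 283 and 9582 reads in a library. Alignments placed at several sites, which were not counted, made up 47.7% of rows in FLOXED 1 and between 38.5% and 41.5% in the other libraries. The transcript targeted by the knockout, Pelp1, was at 18.0 and 17.3 CPM (counts scaled to library size with TMM factors) in PELP1 FBKO, against 26.7 and 26.3 CPM in FLOXED, and did not pass the threshold (edgeR quasi-likelihood, adjusted p = 0.130), though it did in edgeR's exact test (adjusted p = 0.0432). Of 10 genes of the suprachiasmatic nucleus and hypothalamus, 5 had at most 6 reads in a library (Avp, Nms, Six6, Lhx1 and Oxt). The others were Prok2, Six3 and Rgs16, with at most 14, 59 and 270 reads, Vip, which hippocampal interneurons also express, with between 596 and 903 reads, and Grp, with between 417 and 999 reads. The hippocampal genes Neurod6, Hpca and Fibcd1 were above 100 CPM in every library. The labels do not say whether each library is another animal, and the spread behind every p-value is that between libraries, which could be technical.

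No clock member differed between PELP1 FBKO and FLOXED at an adjusted p under 0.05. Arntl, the core activator gene, had the smallest p and was fitted at -21.4% in PELP1 FBKO relative to FLOXED, while Per3 and Hlf had the largest positive differences. By edgeR's quasi-likelihood test 0 of 10 members passed, as did 0% of all 14978 genes. At an unadjusted p under 0.05 there was 1 of 10, Arntl, on the lower side, where 15.6% of all genes lay under it in either direction and 5.55% on the lower side. DESeq2 called 0 of 10, against 3.08% of the genes it tested, edgeR's exact test 0 of 10, against 5.07%, and limma-voom 0 of 10, against 0%. Fitted log2 fold changes, PELP1 FBKO minus FLOXED, were above 0 in 8 of 10 members and in 50% of all genes, with a median of 0.13 for the members and 0.00015 for all genes. In bulk tissue, fewer cells of a type and less RNA per cell cannot be told apart.

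Arntl had 34.3 and 34.1 CPM in PELP1 FBKO and 42.5 and 44.5 CPM in FLOXED. Both PELP1 FBKO libraries lay below both FLOXED libraries, and the libraries of a genotype lay close together. The log2 fold change was -0.35 (SE 0.132, 95% interval -0.65 to -0.04), and the adjusted p over all genes was 0.265 in edgeR's quasi-likelihood test. That p ranged from 0.182 to 0.709 over 14 alternatives, none of which turned the direction. Counts of Arntl were 757 and 696 reads in PELP1 FBKO and 745 and 965 reads in FLOXED.

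Npas2, which encodes a partner of BMAL1 in the forebrain, had 30.1 and 26.0 CPM in PELP1 FBKO and 22.1 and 29.0 CPM in FLOXED. The genotypes overlapped, and FLOXED 1 stood apart on the low side. Its log2 fold change was 0.13 (SE 0.180) with an adjusted p of 0.771 by edgeR's quasi-likelihood test, and -0.05 without FLOXED 1. Clock, the other partner gene and not a member, had 70.5 and 70.7 CPM in PELP1 FBKO and 58.2 and 81.7 CPM in FLOXED, so that FLOXED held both the lowest and the highest library. The partner genes thus gave no separation like that of Arntl.

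Among the Per and Cry members, which repress the activators, Per3 had the largest fitted difference. It stood at 37.4 and 35.2 CPM in PELP1 FBKO, against 26.6 and 32.3 CPM in FLOXED. All PELP1 FBKO values were above the FLOXED values, with a log2 fold change of 0.30 (SE 0.154, 95% interval -0.06 to 0.66; edgeR quasi-likelihood, adjusted p = 0.395). That value was 0.17 without FLOXED 1 and 0.44 without FLOXED 2. Per1, which is also induced acutely by neuronal activity and glucocorticoids, had 89.5 and 73.9 CPM in PELP1 FBKO and 69.7 and 73.2 CPM in FLOXED. PELP1 FBKO 1 was high and PELP1 FBKO 2 was barely above FLOXED 2, and the log2 fold change of 0.19 (SE 0.141) became 0.03 without PELP1 FBKO 1. Per2 lay on the other side, at 30.5 and 32.3 CPM in PELP1 FBKO and 32.6 and 36.4 CPM in FLOXED. The groups met without overlapping, and the log2 fold change was -0.14 (SE 0.143), or -0.07 without FLOXED 2 and -0.22 without FLOXED 1. Cry1, a cryptochrome repressor, had 20.1 and 21.6 CPM in PELP1 FBKO and 19.9 and 18.0 CPM in FLOXED, with a log2 fold change of 0.13 (SE 0.157), or 0.05 without FLOXED 2 and 0.21 without FLOXED 1. The 3 Per genes did not share a direction by their fitted values, and none of these 4 repressor genes passed the threshold (edgeR quasi-likelihood, adjusted p between 0.395 and 0.727).

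Bhlhe41, the gene of the repressor DEC2, had the lowest level per length of the members. On the CPM scale it had 18.0 and 17.3 CPM in PELP1 FBKO and 16.1 and 16.2 CPM in FLOXED. Both PELP1 FBKO libraries were above both FLOXED libraries, by a log2 fold change of 0.13 (SE 0.156; edgeR quasi-likelihood, adjusted p = 0.739). Its paralog Bhlhe40, the gene of DEC1 and not a member, lay the other way, at 113 and 97.0 CPM in PELP1 FBKO and 130 and 148 CPM in FLOXED. That log2 fold change was -0.41 (SE 0.142) with an unadjusted p of 0.0208 and an adjusted p of 0.230 by edgeR's quasi-likelihood test. No test compared the fold changes of the paralogs with each other.

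The PAR bZIP outputs Tef, Hlf and Dbp had overlapping genotypes. Tef, whose protein is an activator at D-boxes, had 434 and 395 CPM in PELP1 FBKO and 374 and 396 CPM in FLOXED. PELP1 FBKO 2 lay between the FLOXED libraries, and the log2 fold change was 0.11 (SE 0.141), or 0.02 without PELP1 FBKO 1. Hlf, named after human hepatic leukemia factor, had 169 and 139 CPM in PELP1 FBKO and 114 and 144 CPM in FLOXED. Its log2 fold change was 0.26 (SE 0.163; edgeR quasi-likelihood, adjusted p = 0.492), with a value of 0.09 without PELP1 FBKO 1 and 0.42 without FLOXED 2.

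Dbp, the strongest cycler of the PAR bZIP genes in many tissues, had 35.5 and 37.0 CPM in PELP1 FBKO and 37.9 and 26.8 CPM in FLOXED. The FLOXED libraries held both its highest and its lowest value, and differed from each other by 0.50 on the log2 scale. Between genotypes the log2 fold change was 0.17 (SE 0.184, 95% interval -0.26 to 0.59; edgeR quasi-likelihood, adjusted p = 0.708), and it was -0.08 without FLOXED 2. Dbp overlaps Sphk2 on the opposite strand in GENCODE vM21, and whether counting used strand is not given, so reads of the overlap cannot be told apart. No other member overlaps an exon of a gene that the files list under its GENCODE symbol.

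**Figure D2:**
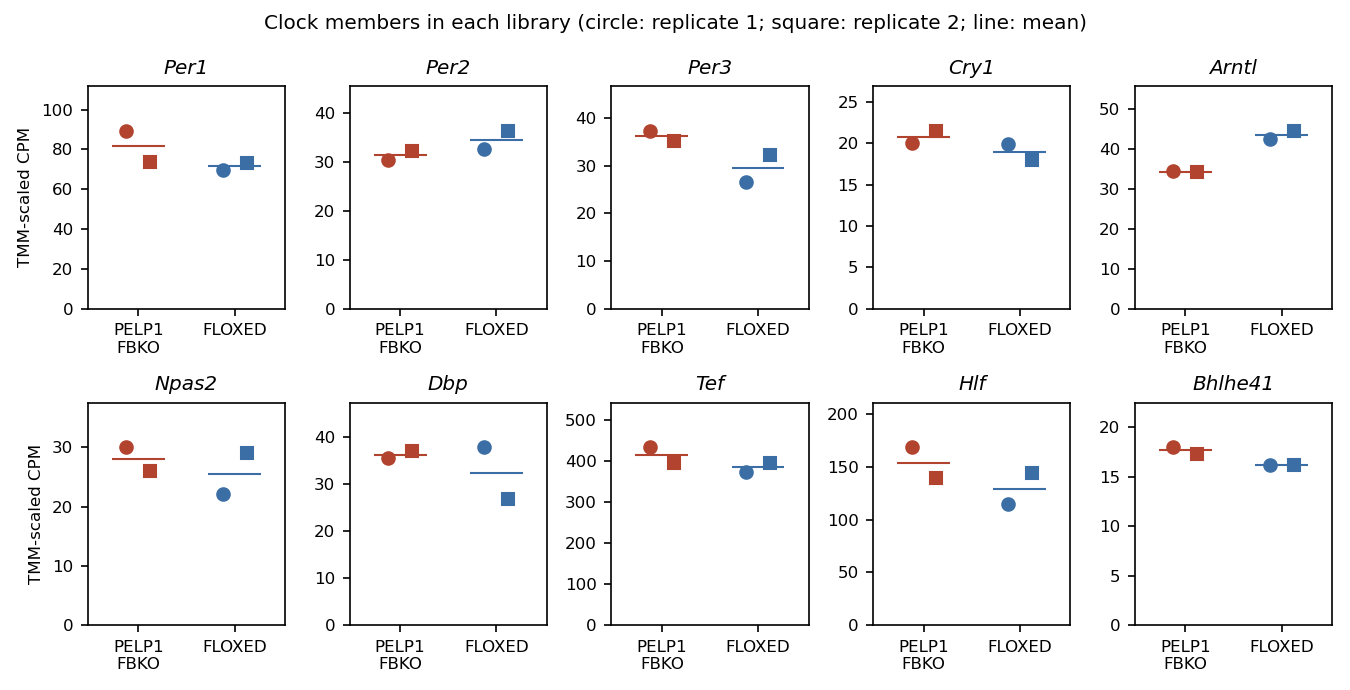
TMM-scaled CPM of the 10 members in each library, with PELP1 FBKO left of FLOXED, circles for replicate 1, squares for replicate 2 and a line at each genotype mean. Arntl is at 34.3 and 34.1 CPM in PELP1 FBKO, below 42.5 and 44.5 CPM in FLOXED, while the FLOXED libraries of Dbp lie on either side of PELP1 FBKO.

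Differences within a genotype were often as large as those between genotypes. The libraries of the genotypes did not overlap in 4 members on the higher side (Per1, Per3, Cry1 and Bhlhe41), where 25.4% of all tested genes were so placed. They did not overlap in 2 members on the lower side (Arntl and Per2), against 23% of all tested genes. The gap between genotype means exceeded the gaps within both genotypes in 3 of 10 members (Arntl, Per3 and Bhlhe41), against 33.6% of all tested genes. PELP1 FBKO 1 held the highest value of 6 members, and FLOXED 1 the lowest value of 6 members. The same count was not made over all tested genes, so this order is not shown to be particular to the members.

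Scaled to transcript length, levels of the members spanned more than an order of magnitude. On the scale of CPM per kilobase of the longest GENCODE vM21 transcript, Tef was at 98.7 and 89.8 in PELP1 FBKO and 84.9 and 89.9 in FLOXED, above every other member in every library. Next in median over the 4 libraries came Hlf (25.1), Dbp (19.7) and Per1 (15.7), whose ranges overlapped from each to the next. Arntl (9.61) lay below them and above the rest in every library. Cry1 (6.61), Npas2 (6.49), Per3 (5.63) and Per2 (5.56) were neighbours with overlapping ranges, and Bhlhe41 was lowest, between 2.63 and 2.94. Which transcripts the hippocampus uses was not measured, so these levels per length are approximate.

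The ratio of Dbp to Arntl within a library does not depend on how libraries are scaled. As log2 of reads with 0.5 added, it was 0.05 and 0.12 in PELP1 FBKO and -0.17 and -0.73 in FLOXED. PELP1 FBKO was higher by 0.53, with an exact two-sided permutation p of 0.333, the smallest that 2 against 2 libraries can give. Without FLOXED 2 the difference was 0.25, and without FLOXED 1 it was 0.81. Taking 10 target genes of the activators (Per1, Per2, Per3, Dbp, Tef, Hlf, Bhlhe41, Nr1d1, Nr1d2 and Ciart), the ratio to Arntl was higher in each PELP1 FBKO library than in either FLOXED library for 10 of 10. So was the ratio to Arntl of 67.3% of all other tested genes, and of Npas2, Clock and Cry1 (by 0.49, 0.38 and 0.48), so this order is common for a ratio to Arntl. All these ratios share Arntl as their denominator and are not separate evidence. With Clock as denominator 3 of the 10 ratios were higher in both PELP1 FBKO libraries, against 18% of all other tested genes, and 7 overlapped. With Npas2 2 were higher, against 13.4%, 1 was lower, against 20.6%, and 7 overlapped. With Cry1 0 were higher, against 14.1%, 1 was lower, against 38.5%, and 9 overlapped. For Dbp alone, the log2 ratio to Clock was -0.99 and -0.94 in PELP1 FBKO, between -0.62 and -1.61 in FLOXED.

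**Figure D3:**
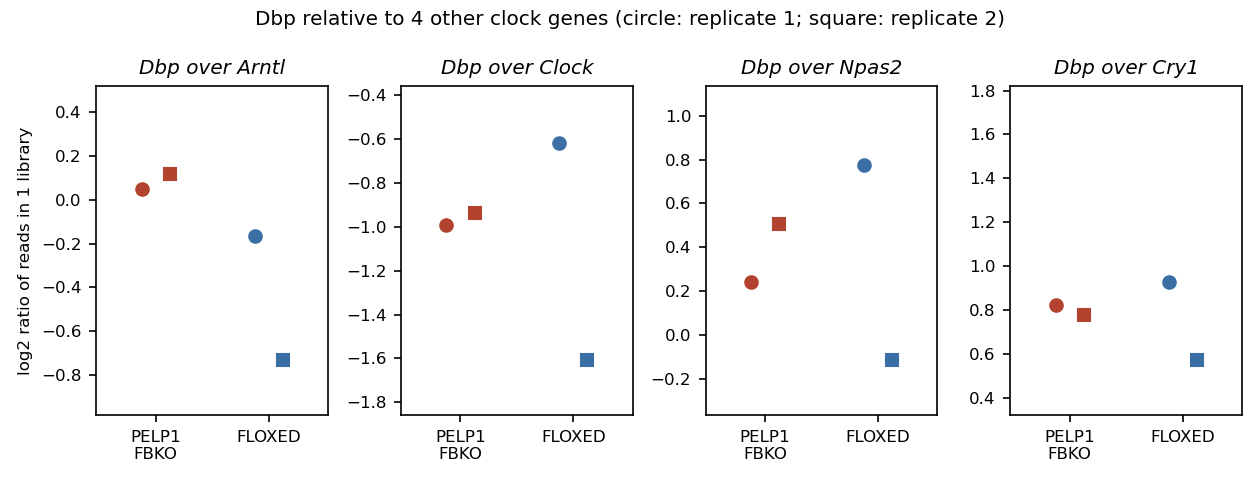
Log2 ratio of Dbp reads to reads of Arntl, Clock, Npas2 and Cry1 within each library, with PELP1 FBKO left of FLOXED, circles for replicate 1 and squares for replicate 2, and vertical axes that span the same number of log2 units. Of these 4 ratios the genotypes are apart only in that to Arntl, where PELP1 FBKO is at 0.05 and 0.12 and FLOXED at -0.17 and -0.73.

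A list of 17 other clock genes gave a similar picture. By edgeR's quasi-likelihood test 0 were past the adjusted threshold, against 0% of all tested genes. DESeq2 called 0, against 3.08% of the genes it tested, a share at which 0 of 17 says little about these genes. At an unadjusted p under 0.05 there was 1 on the higher side, Rorb, where 10.1% of all tested genes were. On the lower side there was 1, Bhlhe40, against 5.55% of all tested genes. Fitted values were above 0 in 11 of 17, against 50% of all tested genes, with a median log2 fold change of 0.05. The REV-ERB genes, whose proteins repress Arntl, lay slightly higher without passing: Nr1d1 had 223 and 200 CPM in PELP1 FBKO and 199 and 193 CPM in FLOXED, and Nr1d2 had 90.5 and 96.0 CPM in PELP1 FBKO and 70.8 and 88.7 CPM in FLOXED. Their log2 fold changes were 0.11 (SE 0.133) and 0.22 (SE 0.147), with adjusted p-values of 0.735 and 0.503 by edgeR's quasi-likelihood test. Nr1d1 was at 0.01 without PELP1 FBKO 1, and Nr1d2 at 0.07 without FLOXED 1 and 0.39 without FLOXED 2. Exons of Nr1d1 overlap Thra on the opposite strand, so its counts are uncertain in the same way as those of Dbp. The same holds for Bhlhe40, which overlaps 0610040F04Rik, and for Cry2, which overlaps D930015M05Rik.

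Rora and Rorb encode activators that compete with REV-ERB at the Arntl promoter, and Rorb had the largest fitted difference of these 17 genes. Rorb had 25.6 and 26.6 CPM in PELP1 FBKO and 13.2 and 20.9 CPM in FLOXED. Both PELP1 FBKO libraries lay above both FLOXED libraries, and FLOXED 1 was low. The log2 fold change was 0.61 (SE 0.221; edgeR quasi-likelihood, adjusted p = 0.248). Rorb was not past the threshold in any alternative that kept every library. Its log2 fold change was 0.97 without FLOXED 2 and 0.32 without FLOXED 1, fits that leave a lone FLOXED library. Rora was sparse, between 24 and 54 reads in a library, and its genotypes overlapped.

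Other repressors and modifiers of the loop did not pass either. Cry2 had 144 and 140 CPM in PELP1 FBKO and 151 and 149 CPM in FLOXED, a log2 fold change of -0.08 (SE 0.124, 95% interval -0.36 to 0.21). Csnk1e, a kinase gene that sets the pace of PER turnover, was at 0.02 (SE 0.123), with an interval of -0.27 to 0.30. Csnk1d, another kinase gene of the list, had 181 and 175 CPM in PELP1 FBKO, against 198 and 199 CPM in FLOXED. The log2 fold change of Csnk1d was -0.16 (SE 0.126), with an interval of -0.45 to 0.13. Nfil3, whose protein represses at the D-boxes that DBP activates, had 16.9 and 19.9 CPM in PELP1 FBKO and 25.4 and 18.1 CPM in FLOXED. The log2 fold change of Nfil3 was -0.24 (SE 0.203), and 0.02 without FLOXED 1. Ciart, a repressor gene listed in the files under its older symbol Gm129, had 7.39 and 6.91 CPM in PELP1 FBKO and 7.24 and 6.04 CPM in FLOXED.

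**Figure D4:**
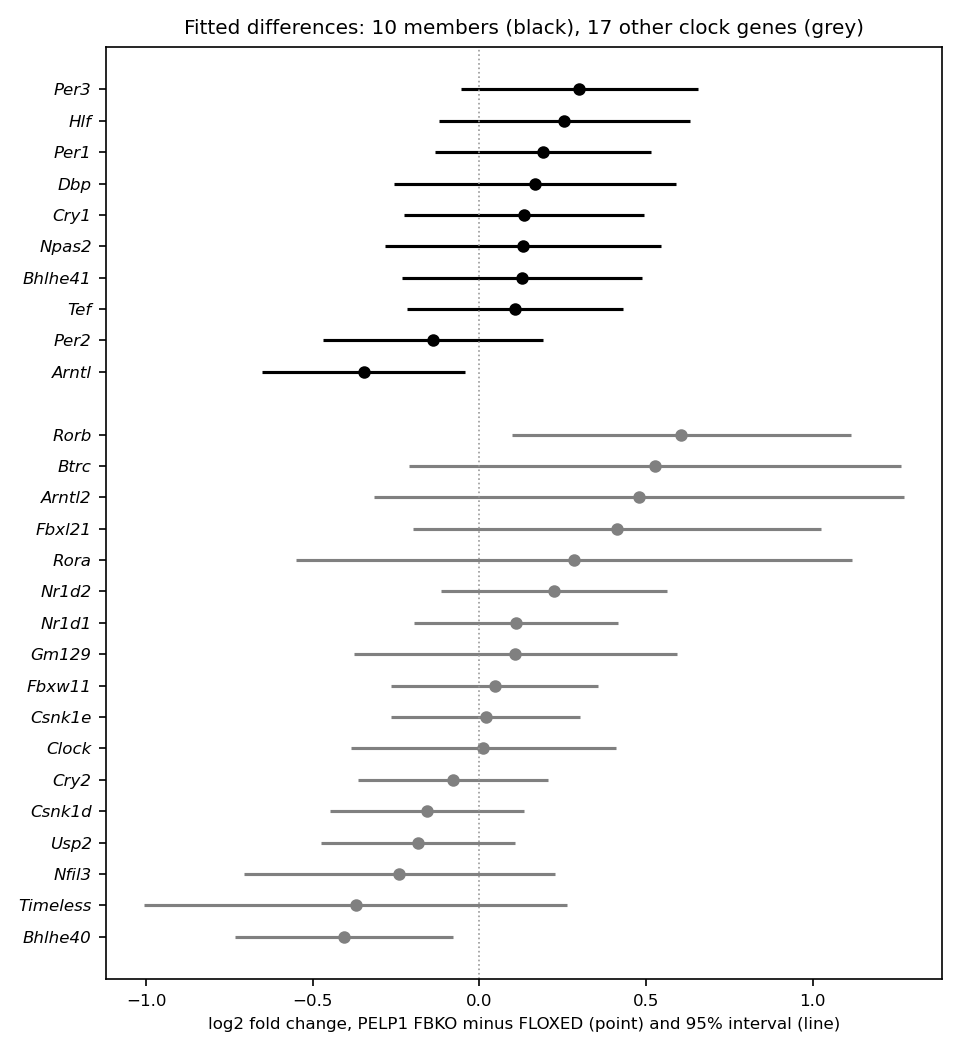
Fitted log2 fold changes (PELP1 FBKO minus FLOXED, points) with 95% intervals (lines) for the 10 members in black and 17 other clock genes in grey, Ciart being shown as Gm129. The interval of Arntl runs from -0.65 to -0.04 and those of the other 9 members include 0.

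Of 12 clock output and temperature genes, 0 passed by edgeR's quasi-likelihood test, against 0% of all tested genes. DESeq2 called 1, against 3.08% of the genes it tested. Fitted values were above 0 in 9 of 12, against 50% of all tested genes, with a median log2 fold change of only 0.03. Klf15, a Krüppel-like factor gene under both clock and glucocorticoid control, had 36.4 and 28.8 CPM in PELP1 FBKO and 20.1 and 19.4 CPM in FLOXED. Its log2 fold change was 0.72 (SE 0.167) with an adjusted p of 0.110 by edgeR's quasi-likelihood test. It was past the threshold in 4 of 14 alternatives, by DESeq2 (adjusted p = 0.0336), by edgeR's exact test (0.0145), with a replicate block (0.0449) and without PELP1 FBKO 2 (0.0178), and its adjusted p ranged up to 0.367. Cirbp, the cold-inducible RNA-binding protein gene, had 95.3 and 81.1 CPM in PELP1 FBKO and 72.1 and 53.0 CPM in FLOXED, a log2 fold change of 0.50 (SE 0.174; edgeR quasi-likelihood, adjusted p = 0.235), or 0.28 without FLOXED 2 and 0.73 without FLOXED 1. Noct, a deadenylase-related output gene listed as Ccrn4l, had 79.4 and 77.9 CPM in PELP1 FBKO and 98.6 and 92.5 CPM in FLOXED, a log2 fold change of -0.28 (SE 0.123; edgeR quasi-likelihood, adjusted p = 0.326). These 3 had the smallest p-values of the list.

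Marker lists of cell types and hormone targets are given beside these genes, and their part in the results was not tested. By edgeR's quasi-likelihood test 0 markers of any list passed the adjusted threshold. DESeq2, which called 3.08% of the genes it tested, called more in some lists. On the higher side it called 8 of 10 oligodendrocyte, 6 of 10 astrocyte, 2 of 10 microglial and 1 of 10 endothelial markers. Among 10 hippocampal neuron markers it called 4 on the lower and 1 on the higher side. Each of the other lists had 1 or 2 DESeq2 calls. Fitted values were above 0 for 9 of 10 oligodendrocyte markers, 10 of 10 astrocyte markers, 10 of 10 microglial markers, 10 of 10 endothelial markers and 6 of 7 tested thalamic markers, and below 0 for 8 of 10 hippocampal neuron markers. Prox1, a marker of dentate granule cells, was at 0.93, opposite to most of the neuron list. Summed CPM, which a few abundant genes carry, was 5872 and 6314 in PELP1 FBKO and 2953 and 3779 in FLOXED for the oligodendrocyte list. The astrocyte sum was 7286 and 9262 in PELP1 FBKO and 5392 and 6536 in FLOXED, and the neuron sum, mostly Hpca, was 2825 and 2188 in PELP1 FBKO and 3561 and 3581 in FLOXED. No test was run on these sums. Ttr, an abundant transcript of the choroid plexus, had 21.4 and 33.9 CPM in PELP1 FBKO and 324 and 67.5 CPM in FLOXED, so that FLOXED 1 stood apart. Ttr did not stand for its list: of 8 tested choroid plexus markers 5 were fitted above 0 and 3, with Ttr, below. Of 10 glucocorticoid targets 8 were above 0, with a median log2 fold change of 0.35, where Per1 was at 0.19. Of 10 activity-induced genes 4 were above 0 and 6 below, with a median of -0.08. Over all tested genes 50% of fitted values lay above 0.

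By a rule of likeness, the genes closest in pattern to Arntl and Dbp were ranked among 10265 genes that averaged at least 10 CPM, by the root-mean-square distance between log2 CPM values centred on the mean of the 4 libraries. Closest to Arntl were Bdnf (0.013), Rgs7 (0.016) and Fam18a (0.017). Bdnf, a neurotrophin gene, had 60.1 and 61.2 CPM in PELP1 FBKO and 75.6 and 78.7 CPM in FLOXED. Closest to Dbp were Actn2 (0.011), Gstm5 (0.024) and Eci2 (0.031), of which Actn2 had 16.7 and 17.6 CPM in PELP1 FBKO and 18.2 and 12.8 CPM in FLOXED. With 4 libraries such likeness is a description only.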

How the data were processed

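Hippocampal RNA was sequenced as 50-base single reads, per the labels' protocols. The authors deposited whole-number counts of reads for each gene symbol, with no normalization. Alignment to mm9 with TopHat2 2.0.8b and counting with HTSeq, after CASAVA 1.8.2, are listed in the submitters' processing notes. A human build is named in the series text, but the symbols are of mouse. HTSeq's annotation and settings are not given in the sources used here. Its summary rows, which are not genes, were left out of all totals, and between 14.7% and 15.7% of uniquely placed reads lay in no gene.

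Genotypes were taken from the labels. The test was edgeR 4.0.16 (R 4.3.3) with TMM, filterByExpr and the quasi-likelihood F test, adjusted by Benjamini-Hochberg over 14978 genes, threshold 0.05. Standard errors and 95% intervals came from the F statistic. The common dispersion gave a coefficient of variation of 14.2%. DESeq2 1.42.0, limma-voom (limma 3.58.1), edgeR's exact test, other scalings and filters, a replicate block and leaving out each library were alternatives.

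Members and lists were chosen with earlier results of these data known. Genes were named by rule: all members, other clock genes, the 3 output genes of smallest p, and the 3 genes closest in pattern to Dbp and to Arntl. Which of the other clock genes to describe, the target genes used in ratios and the marker genes given as a check of the tissue were chosen after their values were seen. Some clock genes are not reported here and were left out of the counts for that list.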

Additional observations from a re-analysis of the deposited data

How the results depend on the processing

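None of the 10 members passed the adjusted threshold under any of the 14 alternatives, where their smallest adjusted p was 0.124, and 8 of 10 lay above 0 in each alternative except those without FLOXED 1 or FLOXED 2, with 7. Of 140 fitted values of members under alternatives 2 turned direction, Dbp (-0.076 without FLOXED 2, up to 0.43 without FLOXED 1) and Npas2 (-0.050 without FLOXED 1, up to 0.33 without FLOXED 2). The number of genes called overall was 0 in the reported fit and with limma-voom, 17 with RLE size factors, 42 with upper-quartile scaling, 23 with library totals only, 359 with no count filter, 43 with at least 50 reads in every library, 449 with DESeq2 and 759 with edgeR's exact test. Leaving out a library gave between 0 (without FLOXED 1) and 598 (without PELP1 FBKO 2), the lone library of a genotype being assumed to vary like the other genotype. With the replicate number as a block 566 genes were called, and Klf15 passed (adjusted p = 0.0449). Across genes, differences between replicates 1 and 2 were only weakly and negatively correlated between the genotypes (r = -0.118). The crossed pairing was added after seeing the data, and it called 314 genes. Neither pairing rests on the labels. Among 17 other clock genes each alternative that kept every library called 0. Leave-out ranges that crossed 0 were -0.061 to 0.86 for Arntl2, -0.21 to 0.27 for Clock, -0.046 to 0.066 for Csnk1e, -0.042 to 0.13 for Fbxw11, -0.030 to 0.24 for Ciart (Gm129), -0.48 to 0.022 for Nfil3 and -0.018 to 0.59 for Rora. The cause of these changes was not tested. With 2 libraries a genotype, standard errors of the members' log2 fold changes lay between 0.132 (Arntl) and 0.184 (Dbp), which limits the differences that could be shown.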

Other observations

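Btrc, which encodes a ubiquitin ligase subunit that marks PER proteins for degradation, had 134 and 115 CPM in PELP1 FBKO and 120 and 52.8 CPM in FLOXED. The value of FLOXED 2 lay apart from the other 3 libraries. Its log2 fold change was 0.53 (SE 0.320) over the 4 libraries and 0.04 without FLOXED 2. The related gene Fbxw11 had 213 and 206 CPM in PELP1 FBKO and 190 and 216 CPM in FLOXED, with no library apart.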
